A study of Mus musculus with 4 samples.

Results

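The respiratory chain genes described here are the protein-coding genes of the deposited expression table whose symbols name subunits of complexes I to V (Nduf with a, b, c, s or v, Sdha to Sdhd, Uqcr, Cox4 to Cox8, Atp5) or genes of the mitochondrial DNA (mt-). The rule found 103 of the 21044 genes in the table. By symbol, 38 were nuclear subunits of complex I, 4 were subunits of complex II, 8 of complex III, 15 of complex IV and 15 of complex V, and 13 were encoded in mitochondrial DNA. The rule also took in 8 complex I assembly factors (Ndufaf1 to Ndufaf8) and 2 genes with ATP synthase names, Atp5s and Atp5sl, which were kept apart from the 80 nuclear subunits.

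The respiratory chain passes electrons from NADH, through complex I, or from succinate, through complex II, to ubiquinone, then through complex III and cytochrome c to complex IV, which reduces oxygen. Complexes I, III and IV pump protons out of the mitochondrial matrix, and complex V lets them back in to make ATP. Most subunits are encoded in the nucleus and imported, while a small set of core subunits of complexes I, III, IV and V is transcribed from mitochondrial DNA; all subunits of complex II are nuclear. In microglia, the brain's resident macrophages, the balance between oxidative phosphorylation and glycolysis is known to shift with activation.

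RNA was sequenced from microglia isolated from the corpus callosum, the main white matter tract between the cerebral hemispheres, of mice at postnatal day 7. The 2 libraries called WT here came from Lag3fl/fl mice, which carry floxed alleles of the inhibitory receptor gene Lag3 and have the genotype label wt. The 2 libraries called cKO came from Lag3cKO-Cx3 mice, with the genotype label ko, in which Lag3 was deleted; the name gives Cx3 as the driver, which is active in microglia and other macrophages, so cKO differs from WT by the driver and by the deletion. The question of the study was what LAG3 does in white matter microglia soon after birth. The labels leave unsaid how many animals went into each library, and the p-values therefore measure only how far these libraries spread.

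Total counts were 15855913 and 14973059 in WT 1 and WT 2, and 16770162 and 14645187 in cKO 1 and cKO 2. Lag3 itself had 387 and 683 CPM (read counts scaled to library size) in WT 1 and WT 2 against 35.4 and 17.1 in cKO 1 and cKO 2, in the direction of the labels. Its log2 fold change, cKO over WT, was -4.34 (SE 0.52, unadjusted p = 0.000552), and the adjusted p of edgeR's quasi-likelihood test with Benjamini-Hochberg adjustment was 0.9997, so this test did not call the deleted gene either, whereas DESeq2 gave it an adjusted p of 1.04e-19. Microglia markers summed to between 22370 and 26730 CPM, with all 10 detected in every library. Markers of other cells were far lower, and several were highest in cKO 2, which also had the fewest genes with a count, 12787 against 14840 to 15899. The 11 astrocyte markers summed to 229 and 186 CPM in WT and 244 and 534 in cKO. The 10 neutrophil and monocyte markers summed to 18.6 and 13.8 in WT and 25.3 and 141 in cKO. The higher value was that of cKO 2 in both cases. Gfap weighed heavily in the astrocyte sum, with 141 and 89.4 CPM in WT and 82.3 and 201 in cKO. All 10 astrocyte markers tested had a log2 fold change above 0, with a median of 1.42, and of 0.68 without cKO 2. In 7 of these, each cKO value exceeded each WT value, against 15.8% of all genes. Slc1a3 and Sox9 had an unadjusted edgeR p under 0.05, but neither edgeR nor DESeq2 called any astrocyte marker. S100b, which was not tested, was lower in cKO. The 7 oligodendrocyte markers in the table summed to between 115 and 195 CPM and the 4 border macrophage markers to between 433 and 491. In cKO 2, 5 of 6 endothelial and mural markers and 3 of 6 neuron markers were at 0. The 6 neuron markers still summed highest in cKO 2, with 9.89 and 23.2 CPM in WT and 22.8 and 63.5 in cKO. The part of these in the results below was not tested, and in bulk RNA fewer cells of a type and less RNA per cell cannot be told apart.

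No respiratory chain gene passed the test for cKO against WT. Of the 103 members, 100 had read counts and 97 passed the filter on low counts (Ndufa4l2, Cox6b2 and mt-Nd4l did not, and mt-Nd3, mt-Atp8 and Cox7a1 had no counts). By edgeR at an adjusted p under 0.05, 0 of 97 were called, against 0% of the 13086 genes tested, and 0 of 97 had an unadjusted p under 0.05, against 4.65% of all genes. The smallest unadjusted p of a member was 0.0761, for Cox4i1, and all adjusted p were 0.9997. DESeq2 also called 0 members, against 0.31% of all genes it adjusted. Fitted log2 fold changes were above 0 for 40 members and below 0 for 57, with a median of -0.07 beside -0.03 over all genes tested. Both cKO libraries lay above both WT libraries for 9 members, against 15.8% of all genes, and below both for 22, against 20%.

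The members' fold changes were mostly small. Of the 97, 85 lay within 0.5 of 0 on the log2 scale, beside 7355 of the 13086 genes tested. The members' median absolute log2 fold change was 0.18, beside 0.42 over all genes, many of them weakly expressed. At 10 CPM or more, 57 of 62 nuclear subunits lay within 0.5, beside 5679 of 8001 genes. The median absolute values there were 0.16 and 0.30. The 24 members at 100 CPM or more had standard errors of 0.14 to 0.36 and fold changes from -0.46 to 0.31. The 22 members under 10 CPM had standard errors of 0.64 to 1.98, with a median of 0.97, about the size of a 2-fold difference.

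**Figure D1:**
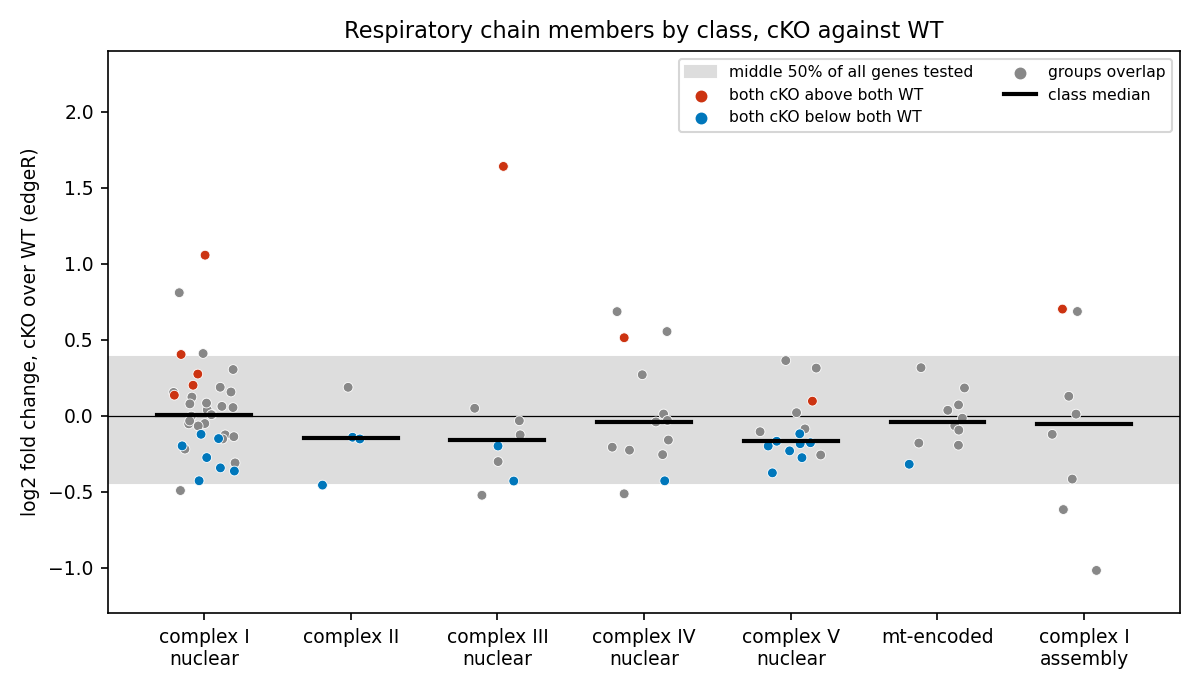
Each point is 1 respiratory chain member, placed by class (horizontal axis) and by its log2 fold change, cKO over WT, from edgeR (vertical axis), coloured by whether the 2 libraries of each group overlap; black lines are class medians, which lie between -0.17 for complex V and 0.01 for complex I. Most points lie within the grey band that holds the middle 50% of all genes tested; the highest point is Uqcr11, at 1.64.

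The mitochondrially encoded subunits ranged from the most abundant members to some of the least abundant. Levels are given as FPKM (fragments scaled by gene model length and by library size), the only scale here on which genes can be compared. Cytochrome b of complex III, mt-Cytb, had 3064 and 2962 FPKM in WT 1 and WT 2 and 2732 and 5009 in cKO 1 and cKO 2. The complex I core subunit mt-Nd1 had 2835 and 2829 in WT and 2469 and 3104 in cKO. The catalytic complex IV subunit mt-Co1 had 2243 and 2098 in WT and 2534 and 2152 in cKO. For mt-Cytb and mt-Nd1 the cKO libraries lay on both sides of the WT libraries, and for mt-Co1 cKO 2 lay between the WT libraries, so the groups overlapped in all 3. The next levels, as means over the 4 libraries, were those of the complex I subunits mt-Nd4 (334 FPKM), mt-Nd2 (223), mt-Nd5 (165) and mt-Nd6 (103).

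The other 6 mitochondrially encoded genes were listed at far lower levels. The ATP synthase subunit mt-Atp6 had 45.5 and 44.5 FPKM in WT and 43.6 and 61.7 in cKO. The complex IV core subunits mt-Co2 and mt-Co3 had means of 4.92 and 4.09 FPKM, although they belong to the same enzyme core as mt-Co1. The smallest members, mt-Nd4l, mt-Nd3 and mt-Atp8, had means of 0.32, 0.23 and 0.16 FPKM and were listed at 0 in at least 1 WT library.

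**Figure D2:**
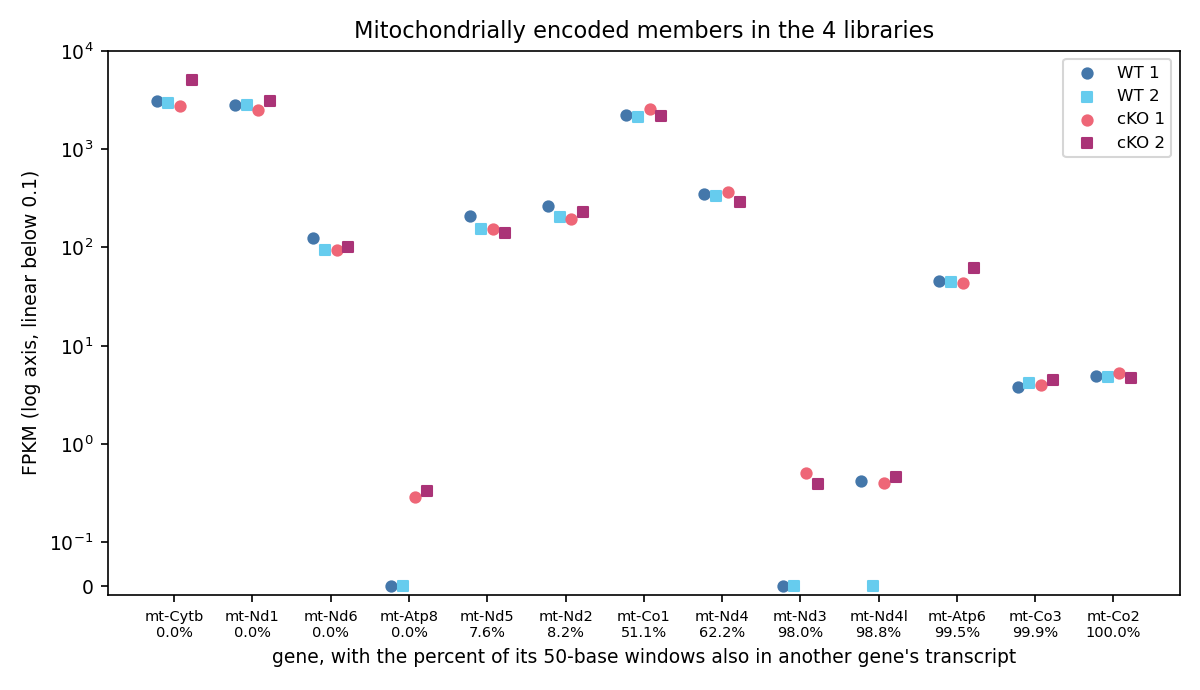
FPKM of the 13 mitochondrially encoded genes (vertical axis, logarithmic, linear below 0.1) in each of the 4 libraries, ordered along the horizontal axis by the percent of their 50-base windows that also occur in a transcript of another gene. The 5 genes at 98.0% or more lie between 0 and 61.7 FPKM in all libraries, and mt-Cytb, mt-Nd1 and mt-Co1 lie above all other genes.

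The genes also differ in how much of their sequence occurs elsewhere in the genome. A run of annotated pseudogenes on chromosome 1 carries a copy of part of the mitochondrial DNA, and reads from identical stretches have more than 1 place of origin. The share of a gene's 50-base windows found exactly in a transcript of another gene (GENCODE M21) was 100% for mt-Co2, 99.9% for mt-Co3, 99.5% for mt-Atp6, 98.8% for mt-Nd4l and 98.0% for mt-Nd3. These 5 genes had a median level of 4.09 FPKM. The share was 62.2% for mt-Nd4, 51.1% for mt-Co1, 8.19% for mt-Nd2 and 7.61% for mt-Nd5, with levels from 165 to 2257 FPKM. It was 0% for mt-Cytb, mt-Nd1 and mt-Nd6, and also for mt-Atp8. The levels did not follow the share step by step: mt-Nd4 and mt-Co1 lay above mt-Nd2, mt-Nd5 and mt-Nd6, and mt-Atp8 was the lowest of the 13. The low level of mt-Atp8, which is read from the same messenger RNA as mt-Atp6 and overlaps it, stands beside no shared window. The sources used here do not give how reads with several places of origin, or reads in overlapping genes, were counted, and the part of this in these levels was not tested.

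The copies differ from the mitochondrial genes at almost no base. Over the aligned lengths, mt-Co2 and the pseudogene Gm28661 had 0 differing bases in 681, mt-Co3 and Gm28437 had 0 in 783, mt-Atp6 and Gm10925 had 0 in 678, mt-Nd4l and Gm10222 had 0 in 294, and mt-Nd4 and Gm28439 had 0 in the 876 bases they share. The pair mt-Nd3 and Gm28438 had 1 differing base in 345, the substitution T3C, counted from the first base of mt-Nd3, where the mitochondrial gene has T and the copy has C. The 6 aligned copies lie within chr1:24611535-24615565 on the minus strand (GRCm38), a span of 4031 bases. The first 60 bases of 2 of the pairs are shown because a read within the mt-Co2 stretch, or within the mt-Nd3 stretch past base 3, has the same letters in both places; each is given 5′ to 3′, and capitals mark the differing base. They lie at chrMT:7013-7072 on the plus strand for mt-Co2 and chr1:24615506-24615565 on the minus strand for Gm28661, and at chrMT:9459-9518 on the plus strand for mt-Nd3 and chr1:24613060-24613119 on the minus strand for Gm28438.
mt-Co2: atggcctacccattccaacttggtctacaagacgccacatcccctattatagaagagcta
Gm28661: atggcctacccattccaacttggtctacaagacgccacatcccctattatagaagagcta
mt-Nd3: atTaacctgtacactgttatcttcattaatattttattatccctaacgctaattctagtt
Gm28438: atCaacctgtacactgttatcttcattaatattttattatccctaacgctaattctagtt

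The deposited FPKM of the copies stood in no fixed relation to those of the genes they match. Gm10925 had 38.9 and 42.3 FPKM in WT and 35.4 and 53.2 in cKO, beside the 45.5, 44.5, 43.6 and 61.7 of mt-Atp6. Gm28661 had 2.50 and 3.53 in WT and 2.71 and 1.3 in cKO, beside 4.98 and 4.78 in WT and 5.23 and 4.69 in cKO for mt-Co2. Gm28439, which matches part of mt-Nd4, had 3.82 to 5.90 FPKM against a mean of 334 for that gene. In cKO 2, Gm10222 and Gm28438 had 6.50 and 5.15 FPKM, above the 0.46 and 0.39 of mt-Nd4l and mt-Nd3 there. Levels of mt-Co2, mt-Co3, mt-Atp6, mt-Nd3 and mt-Nd4l in these data are therefore uncertain. The same holds in part for mt-Nd4 and mt-Co1, which also share many of their windows with other genes. The 3 abundant genes dominate any sum: mt-Co1, mt-Cytb and mt-Nd1 made up 88.7% to 92.3% of the mitochondrially encoded counts. Of the 90 nuclear members, 20 had 10% or more of their windows in another gene, mostly processed pseudogenes or overlapping genes on the other strand, and 44 had under 1%.

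Between cKO and WT the mitochondrially encoded genes showed no shared direction. Of the 10 tested, 4 had a fitted log2 fold change above 0 and 6 below, from -0.32 to 0.31, with a median of -0.04. The largest lower value was that of the complex I subunit mt-Nd5, with 383 and 287 CPM in WT and 284 and 252 in cKO. Both cKO libraries lay below both WT libraries, though cKO 1 and WT 2 almost met (log2 fold change -0.32, SE 0.21). It was the only one of the 10 whose groups did not overlap, against 15.8% of all genes above and 20% below. The largest higher value was that of mt-Cytb, with 3544 and 3463 CPM in WT and 3121 and 5596 in cKO, where cKO 2 was the highest and cKO 1 the lowest library (log2 fold change 0.31, SE 0.30). Without cKO 1 its log2 fold change was 0.67, and it was the 1 member called by edgeR in that fit (adjusted p = 0.0247), against 6.26% of all genes; that fit takes the spread of its single cKO library from the WT libraries. Without cKO 2 its log2 fold change was -0.17.

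As a share of all counts, the mitochondrially encoded genes made up 1.09% and 1.04% in WT 1 and WT 2 and 1.05% and 1.3% in cKO 1 and cKO 2. The nuclear subunits of complexes I to V made up 0.787% and 0.776% in WT and 0.733% and 0.788% in cKO. The ratio of the former to the latter was 1.39 and 1.34 in WT and 1.43 and 1.65 in cKO, so both cKO libraries lay above both WT libraries, with cKO 1 close to WT. With 2 libraries against 2, an exact permutation test cannot give a two-sided p below 0.33. Taken gene by gene instead of by sum, the median log2 fold change was -0.04 for the mitochondrially encoded and -0.07 for the nuclear subunits, a difference of 0.03 beside a standard deviation of 0.10 between libraries of a group. The higher summed share in cKO 2 was that of mt-Cytb and mt-Nd1; mt-Co1 was lower in cKO 2 (3247 CPM) than in cKO 1 (3910).

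Among nuclear genes, complex II had the highest median level of the 5 complexes, 92.6 FPKM, beside 24.6 for complex V, 21.6 for complex III, 17.2 for complex I and 13.3 for complex IV. Complex II, or succinate dehydrogenase, is also an enzyme of the citric acid cycle, and 3 of its 4 subunits lay below WT in both cKO libraries, against 20% of all genes. Sdhc, a membrane anchor, had 170.0 and 148 CPM in WT and 127 and 105 in cKO (log2 fold change -0.46, SE 0.21). The groups did not overlap, and the value was -0.33 without cKO 2 and -0.61 without cKO 1. Sdhd, the other membrane anchor and the nuclear member with the highest level (mean 318 FPKM), had 413 and 415 CPM in WT and 377 and 367 in cKO. The catalytic flavoprotein subunit Sdha had 521 and 567 CPM in WT and 513 and 473 in cKO. These differences were about the size of that between the WT libraries for Sdha and larger than it for Sdhd, with log2 fold changes of -0.14 and -0.15 (SE 0.15 for both). The iron-sulfur subunit Sdhb behaved otherwise, with 131 and 119 CPM in WT and 99.0 and 186 in cKO, so that cKO 1 was the lowest and cKO 2 the highest library.

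**Figure D3:**
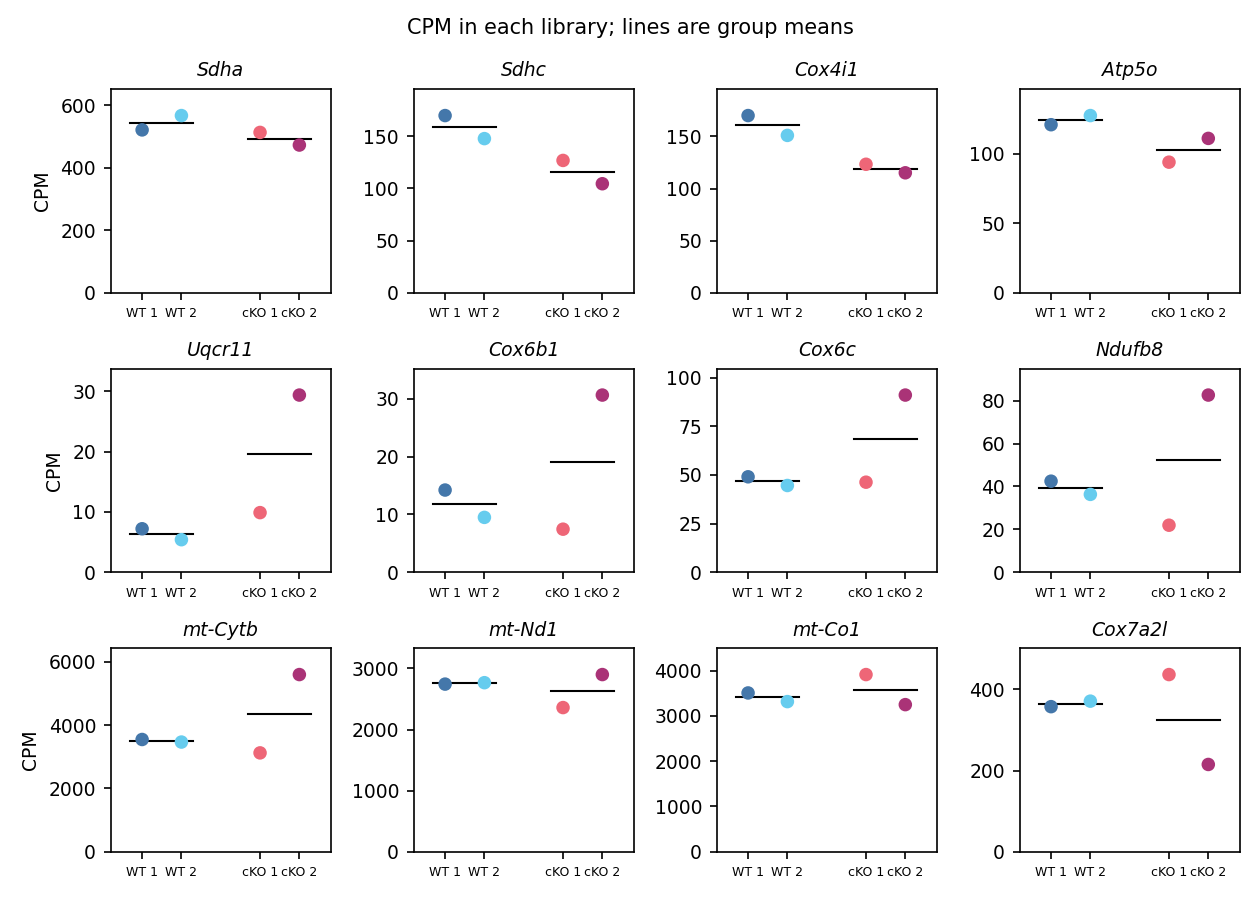
CPM (vertical axes, from 0) in each library for 12 members, with lines at the group means. In Sdha, Sdhc, Cox4i1 and Atp5o both cKO libraries lie below both WT libraries; in Uqcr11, Cox6b1, Cox6c, Ndufb8 and mt-Cytb the cKO 2 library alone is far above the other 3, and in Cox7a2l it is the lowest.

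In complex V, the ATP synthase, most subunits had slightly lower values in cKO. Of its 15 nuclear subunits, 11 had a fitted log2 fold change below 0, and 10 of these, all but Atp5l, stayed below 0 whichever library was left out. In 8 of the 15 both cKO libraries lay below both WT libraries, beside 20% of all genes, and in 1, Atp5c1, above. The median was -0.17 beside -0.03 over all genes, with none of the 15 past 0.5 in either direction. The class median had a standard deviation of 0.08 between libraries of a group. The 2 WT libraries alone differed by a similar amount, with a median log2 ratio of -0.15 for WT 2 over WT 1. Of the 15, 3 were higher in WT 2. The oligomycin sensitivity subunit Atp5o, in the stalk, had 121 and 127 CPM in WT and 93.9 and 111 in cKO (log2 fold change -0.28, SE 0.21), and 41.6% of its windows also occur in other genes, antisense ones included. The catalytic core subunits did not separate clearly. Atp5a1 had 574 and 513 CPM in WT and 484 and 472 in cKO, below WT in both, with a log2 fold change of -0.19 (SE 0.15). Atp5b had 1258 and 1343 CPM in WT and 1300 and 1148 in cKO, with overlapping groups. The central stalk subunit Atp5c1 had 350 and 332 CPM in WT and 373 and 355 in cKO, a log2 fold change of 0.09 (SE 0.15). Atp5j2, the other member named for a higher value, had 4.21 and 9.97 CPM in WT and 5.42 and 12.8 in cKO, where the groups overlapped.

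The proteolipid ring of ATP synthase is made from the same mature protein encoded by Atp5g1, Atp5g2 and Atp5g3. Atp5g2 supplied most of their summed FPKM, 58.9% and 59.3% in WT and 62.7% and 52.7% in cKO. Atp5g3 supplied 22.2% to 30.5% and Atp5g1 14.5% to 16.8%. The order was the same in all 4 libraries, and the cKO libraries lay on both sides of the WT libraries for Atp5g2 and Atp5g3 and overlapped them for Atp5g1. About 38.3% of Atp5g2 windows also occur in pseudogenes.

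Complex I, the largest complex, had as many higher as lower members. Of 37 nuclear subunits tested, 19 had a log2 fold change above 0 and 18 below, with a median of 0.01. Both cKO libraries lay above WT for 5 and below for 7, against 15.8% and 20% of all genes. The subunits with the highest levels were Ndufs8, an iron-sulfur subunit (mean 116 FPKM), Ndufa9 (115) and Ndufb9 (95.5). Ndufs8 had 107 and 113 CPM in WT and 98.9 and 130 in cKO, with the WT libraries between the cKO libraries. Ndufa9, an accessory subunit, had 218 and 232 CPM in WT and 248 and 268 in cKO, above WT in both, but by a log2 fold change of only 0.20 (SE 0.16). Ndufs1, which carries iron-sulfur clusters of the electron path, had 135 and 139 CPM in WT and 97.7 and 128 in cKO, below WT in both, with a log2 fold change of -0.28 (SE 0.22). Ndufs3, a core subunit, had 201 and 208 CPM in WT and 196 and 160 in cKO, also below WT in both (-0.20, SE 0.19). Ndufs5 had 3.25 and 3.34 CPM in WT and 3.39 and 10.3 in cKO; its log2 fold change of 1.06 (SE 0.97) was 0.04 without cKO 2.

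Among the assembly factors of complex I, 4 of 8 had a log2 fold change above 0 and 4 below. Ndufaf1, which helps to join early assembly intermediates, had 27.3 and 16.4 CPM in WT and 32 and 39.1 in cKO, above WT in both (0.70, SE 0.41). Ndufaf4 had 11.7 and 25 CPM in WT and 12.8 and 5.27 in cKO, and its groups overlapped (-1.02, SE 0.73).

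Complex III held the member with the largest fold change. Uqcr11, a small accessory subunit, had 7.21 and 5.39 CPM in WT and 9.89 and 29.4 in cKO. Both cKO libraries lay above WT, with a mean of 19.6 ± 13.8 CPM in cKO and 6.30 ± 1.28 in WT (SD, n = 2 each), and cKO 2 set most of the difference. Its log2 fold change of 1.64 (SE 0.73) was 0.65 without cKO 2. The symbol rule leaves out the complex III subunit Cyc1, which is given with the lists below. Of the 8 nuclear subunits that the rule names, 2 had a fitted log2 fold change above 0 and 6 below. Their median of -0.16 became 0.07 without cKO 1. The core protein Uqcrc1, at a mean of 206 FPKM the highest of the class, had 807 and 919 CPM in WT and 675 and 1011 in cKO, with WT between the cKO libraries. Uqcrb, an accessory subunit, had 43.7 and 33.8 CPM in WT and 34.4 and 19.5 in cKO (-0.52, SE 0.42), and 25.5% of its windows also occur in other genes. The Rieske iron-sulfur protein Uqcrfs1 had 35.9 and 31.3 CPM in WT and 22.5 and 32 in cKO, and Uqcrq had 48.8 and 45.4 in WT and 37.7 and 59.7 in cKO; the groups overlapped in both.

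In complex IV, cytochrome c oxidase, 5 of 13 tested nuclear subunits had a log2 fold change above 0 and 8 below, with a median of -0.04. Cox4i1, the main form of the regulatory subunit 4, had 170.0 and 151 CPM in WT and 123 and 115 in cKO. The groups did not overlap, and the gap between them was wider than the difference within either (log2 fold change -0.43, SE 0.19). This was the smallest p of all members, and the value ranged from -0.49 without cKO 1 to -0.38 without cKO 2. Other subunits of the same enzyme did not share it. Cox5b, which binds zinc, had 16.7 and 15.2 CPM in WT and 17.2 and 28.3 in cKO (0.51, SE 0.46), above WT in both but in cKO 1 only just. Cox6c had 49.0 and 44.6 CPM in WT and 46.3 and 91.1 in cKO (0.55, SE 0.40), and without cKO 2 its log2 fold change was -0.02. Cox8a, a small membrane subunit with a mean of 139 FPKM, had 94.2 and 69.1 CPM in WT and 67.5 and 73.9 in cKO, and Cox6a1 (mean 202 FPKM) had 149.9 and 132 in WT and 119 and 165 in cKO. Cox7a2l, a factor that joins complexes III and IV into supercomplexes, had the highest level of the class (mean 299.6 FPKM); it had 358 and 371 CPM in WT, 437 in cKO 1 and 215 in cKO 2, so the cKO libraries lay on opposite sides of WT.

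The tissue-restricted forms of complex IV subunits were near the limit of detection. Cox4i2, the form known from lung, reached 0.369% and 1.87% of the FPKM of Cox4i1 in WT and 1.33% and 1.48% in cKO. Cox6a2, the heart and muscle form, reached 1.67% and 1.33% of Cox6a1 in WT and 1.80% and 0.50% in cKO. Cox7a1, the other heart and muscle form, was listed at 0 in 3 of 4 libraries while Cox7a2 had a mean of 42.9 FPKM, and Cox6b2, the testis form, was at 0 counts in WT 2 and cKO 2. Ndufa4, now assigned to complex IV although its symbol places it in complex I here, had 18.8 and 14.0 CPM in WT and 12.6 and 18.7 in cKO. Its paralog Ndufa4l2, known as a hypoxia target, had 0 and 0.205 CPM in WT and 1.37 and 0 in cKO.

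The nuclear subunits differed somewhat more between the 2 cKO libraries than between a single cKO and a single WT library, and so did all genes. The median absolute log2 ratio of cKO 2 over cKO 1 was 0.39 for the subunits and 0.65 over all genes. For a single cKO library over a single WT library, the median absolute log2 ratio was 0.21 to 0.34 for the subunits and 0.40 to 0.62 over all genes. The fitted log2 fold change of cKO over WT, which averages 2 libraries per group, had a median absolute value of 0.19 and 0.42. Of 77 tested subunits, 55 were higher in cKO 2 than in cKO 1, with a median log2 ratio of 0.24, beside -0.12 for WT 2 over WT 1. Across all genes the median for cKO 2 over cKO 1 was 0.02. Ratios over all genes leave out genes at 0 in either library, which kept 11093 of 13086 for cKO 2 over cKO 1. The class medians were 0.62 for complex III, 0.34 for complex IV, 0.27 for complex I, -0.08 for complex II and 0.00 for complex V. Accordingly the class medians of cKO over WT depended on the library left out. For complex I the median was -0.15 without cKO 2 and 0.19 without cKO 1, for complex III -0.34 and 0.07, and for complex IV -0.14 and 0.06. For complex II they were -0.23 and -0.20, for complex V -0.18 and -0.18, and for the mitochondrially encoded genes -0.12 and -0.08, each below 0 both ways. The medians of all genes tested were also below 0 both ways, at -0.02 without cKO 2 and -0.15 without cKO 1. Over all genes tested at 10 CPM or more they were -0.02 and -0.05.

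**Figure D4:**
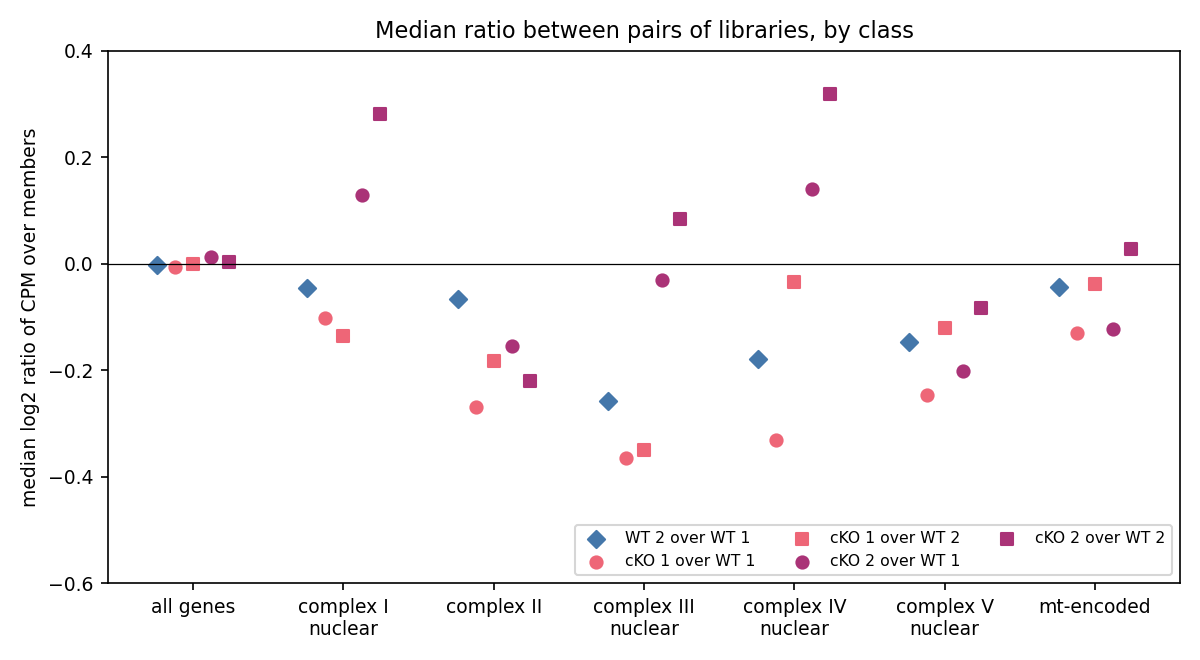
Median log2 CPM ratio (vertical axis) over the tested members of each class, for WT 2 over WT 1 (diamonds) and for each cKO library over each WT library. In complexes I, III and IV the ratios of cKO 2 lie above those of cKO 1, and in complexes II and V all 4 ratios of cKO over WT lie below 0, as does WT 2 over WT 1.

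The excess in cKO 2 was largest among weakly expressed subunits. Of the 15 nuclear subunits tested with a mean under 10 CPM, 13 were higher in cKO 2 than in cKO 1, with a median log2 ratio of 1.24. All genes tested under 10 CPM had a median of 0.23, over the 3192 of 5085 with a count in both cKO libraries. None of the 15 subunits was left out in this way, so the 2 medians are not fully alike. At 10 CPM or more the median was 0.19 over 62 subunits and -0.02 over all genes. In all, 14 of 97 members were over 2-fold higher in cKO 2 than in cKO 1, against 15.6% of all genes, and 4 were over 2-fold lower, against 26.3%. Several, chosen here after their values were seen, encode small accessory subunits. Cox6b1, at the face of complex IV towards the intermembrane space, had 14.2 and 9.49 CPM in WT, 7.44 in cKO 1 and 30.7 in cKO 2. Ndufb8 had 42.5 and 36.3 CPM in WT, 21.9 in cKO 1 and 82.7 in cKO 2. Ndufs6 had 3.06 and 3.21 CPM in WT, 2.86 in cKO 1 and 8.13 in cKO 2. In these 3, cKO 1 was the lowest of the 4 libraries and cKO 2 the highest. Short gene models leaned the same way over all genes, with a median log2 ratio of 0.26 for cKO 2 over cKO 1 under 1000 bases and -0.13 over 5000, but 79 genes of cytosolic ribosomal proteins had -0.06. The part of gene length or of library quality in this was not tested.

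**Figure D5:**
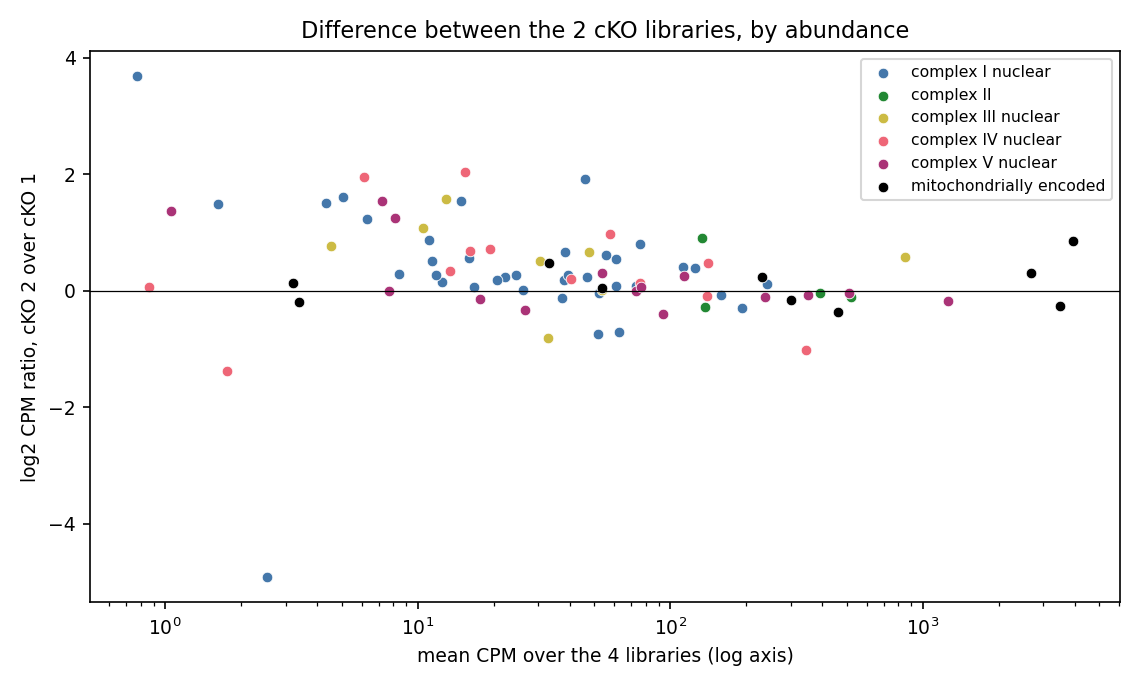
Log2 CPM ratio of cKO 2 over cKO 1 (vertical axis) against the mean CPM over 4 libraries (horizontal axis, logarithmic) for the tested subunits, coloured by class. Most subunits under 10 CPM lie above 0, while the abundant subunits of complex V lie close to 0; the lowest point is Ndufb2.

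The promoters of 3 of the members described above are shown: the member with the largest fold change between cKO and WT (Uqcr11), one that was high in cKO 2 alone (Cox6b1) and the most abundant nuclear member (Sdhd). RefSeq promoter sequences (GRCm38.p6) were matched by symbol for 72 of the 103 members. NRF1 and ETS-family factors such as GABP are known activators of many respiratory chain genes. The letters GCGC, 2 bases of any kind and GCGC again, an NRF1 motif, occurred on either strand in the 250 bases before the start of 22.1% of the 77 member promoters, beside 4.98% of 32851 promoters of all genes. The ETS core CCGGAAG occurred in 18.2% beside 6.91%, the YY1 motif AAGATGGCG in 1.3% beside 0.606%, and the TATA letters TATAAA in 7.79% beside 12.4%. By class, 8 of 33 complex I genes had the NRF1 letters and 3 had the ETS letters; of 13 complex V genes, 4 and 4 did; of 11 complex IV genes, 1 and 2 did. A match is a description of letters, and no binding was measured here. The 140 bases before the start are given 5′ to 3′ in the direction of the gene, with matches of NRF1 or ETS letters in capitals. They lie at chr10:80406822-80406961 for Uqcr11, chr7:30626115-30626254 for Cox6b1 and chr9:50603850-50603989 for Sdhd, all on the minus strand. Sdhd holds both motifs, and the other two hold the ETS letters only.
Uqcr11: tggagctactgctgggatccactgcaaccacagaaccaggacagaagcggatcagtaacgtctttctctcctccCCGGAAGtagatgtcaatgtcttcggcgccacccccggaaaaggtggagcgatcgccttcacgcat
Cox6b1: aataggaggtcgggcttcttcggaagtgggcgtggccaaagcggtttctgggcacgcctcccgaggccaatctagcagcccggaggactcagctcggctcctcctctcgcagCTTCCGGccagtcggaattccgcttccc
Sdhd: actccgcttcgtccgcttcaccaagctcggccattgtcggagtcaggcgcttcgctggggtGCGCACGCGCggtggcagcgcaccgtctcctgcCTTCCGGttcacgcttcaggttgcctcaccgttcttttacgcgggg

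The authors' deposited tables compare 1 cKO library with 1 WT library at a time, so the 4 tables share libraries and are not independent. No member had the same call in all 4 of the authors' deposited tables, with 0 higher and 0 lower, against 1.62% and 3.75% of 18459 genes. In at least 3 of the authors' deposited tables the members' counts were also 0 and 0, against 3.82% and 5.87% of all genes. Within single tables, 7.07% to 14.1% of members were called in the authors' deposited tables, against 34.8% to 48.8% of all genes. In 2 of the authors' deposited tables, 9 members were called higher, against 22.6% of all genes called higher in at least 2, and 4 were called lower, against 29.9%. The 9 included Uqcr11, Cox6b1, Ndufb8, Ndufs5 and Ndufs6, each called only in the 2 comparisons that use cKO 2. Ndufb6 was among both the 9 and the 4, higher in the comparisons of cKO 2 and lower in those of cKO 1.

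Genes outside the symbol rule that serve the respiratory chain also gave no call. Their 6 lists include some subunits that the symbols miss, such as Cyc1 of complex III. Both edgeR and DESeq2 called 0 in each of the 6 lists. For 4 listed genes, Cox15, Nubpl, Twnk and Ppargc1b, edgeR gave an unadjusted p under 0.05. That is 2.2% of the 182 tested, against 4.65% of all genes. Of 36 assembly factors outside the symbol rule, 14 had a log2 fold change above 0 and 22 below, with a median of -0.11. The 2 smallest unadjusted p of the list were those of Cox15 and Nubpl. Cox15, which makes the heme A of complex IV, had 34.6 and 39.6 CPM in WT and 83.4 and 84.9 in cKO, so both cKO libraries were more than 2-fold above both WT libraries (log2 fold change 1.18, SE 0.25, edgeR adjusted p = 0.9997, DESeq2 adjusted p = 0.0729). Nubpl, which delivers iron-sulfur clusters to complex I, had 20.7 and 18.3 CPM in WT and 53.8 and 49.5 in cKO (1.41, SE 0.31, edgeR adjusted p = 0.9997, DESeq2 adjusted p = 0.112). In both, the 2 libraries of each group were close together, and the value lay between 1.07 and 1.28 for Cox15 and between 1.32 and 1.48 for Nubpl whichever library was left out. The subunits they serve did not share this: mt-Co1, which receives heme A, had a log2 fold change of 0.07, and the complex I subunits a median of 0.01. Among the list's lower values, Cox11 had 4.34 and 1.77 CPM in WT and 1.37 and 0.80 in cKO, and Sdhaf3 7.14 and 8.19 in WT and 5.42 and 2.33 in cKO.

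Of 23 genes for mitochondrial DNA and RNA, 12 were fitted higher and 11 lower, with a median of 0.10. Twnk, the replicative helicase of mitochondrial DNA, had 32.8 and 26.4 CPM in WT and 6.25 and 13.5 in cKO, below WT in both (-1.58, SE 0.55). Lrpprc, which stabilises mitochondrial messenger RNA, had 119 and 115 CPM in WT and 97.7 and 69.0 in cKO (-0.49, SE 0.26). The transcription elongation factor Tefm and the poly(A) polymerase Mtpap had 12 and 28.8 CPM in cKO 1, near their WT values of 9.50 and 10.2, and 28.7 and 25.9, and 22 and 51.7 in cKO 2. Of 76 mitochondrial ribosomal proteins, 47 were fitted higher and 29 lower, with a median of 0.10 that was 0.01 without cKO 2. Mrpl10 had 67.2 and 60.3 CPM in WT and 86.6 and 118 in cKO, and Mrpl1 28.8 and 23.1 in WT and 39.1 and 43.1 in cKO, above WT in both. Mrps28 had 23.8 and 24 CPM in WT and 13.0 and 17.5 in cKO, and Mrps7 55.1 and 68.7 in WT and 52.9 and 25.5 in cKO, below WT in both.

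Of 12 tested regulators of mitochondrial biogenesis, 3 were fitted higher and 9 lower, with a median of -0.10. Ppargc1b, a coactivator of respiratory chain genes, had 6.12 and 9.62 CPM in WT and 1.31 and 1.33 in cKO, below WT in both (-2.57, SE 0.93), at a depth where the cKO values stand for few reads. Hif1a, which directs metabolism towards glycolysis in low oxygen, had 748 and 685 CPM in WT and 591 and 422 in cKO (-0.50, SE 0.21). The deacetylases Sirt1 and Sirt3, named for higher values, had 0.51 and 2.32, and 1.72 and 4.91 CPM in WT, against 1.31 and 7.47, and 5.06 and 5.07 in cKO. Of 21 genes of the citric acid cycle and pyruvate dehydrogenase, 8 were fitted higher and 13 lower, with a median of -0.06. Pdk1, a kinase that restrains pyruvate dehydrogenase, had 273 and 280.0 CPM in WT and 219 and 195 in cKO (-0.42, SE 0.17), and Pdk4 had 10.5 and 6.89 in WT and 1.01 and 0 in cKO. The succinyl-CoA ligase subunits Sucla2 and Suclg2, named for higher values, had 106.5 and 98.9 CPM in cKO 1, within or below their WT values of 98.1 to 114, and 161.5 and 139.8 in cKO 2. Of 14 electron carriers and exchange proteins, 9 were fitted higher and 5 lower, with a median of 0.18 that was -0.15 without cKO 2. Cyc1, the cytochrome c1 of complex III, had 171 and 189 CPM in WT and 163 and 121 in cKO, and the porin Vdac1 58.0 and 55.1 in WT and 47.5 and 31.1 in cKO, below WT in both. On the other side, Slc25a4, which exchanges ADP and ATP across the inner membrane, had 129 and 136 CPM in WT and 145 and 168 in cKO, and Usmg5, a small protein of the ATP synthase, 6.57 and 7.37 in WT and 8.28 and 18.3 in cKO, above WT in both. For Usmg5 the cKO 1 value was close to WT.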

How the data were processed

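The authors deposited FPKM for 21044 genes and 4 tables, each of 1 cKO and 1 WT library, with read counts, a log2 fold change and an adjusted p-value, per the file headers; the authors' test and the strand are not given in the sources used here. HTSeq 0.6.0, TopHat2 2.0.12, Bowtie2 2.2.3 and mm9 are named, without settings, in the submitters' processing notes, but 92.2% of 21008 gene positions equal GENCODE M21, so positions are GRCm38. Counts were joined for 18459 genes; 4315 of 73836 cells absent from the tables were recovered from FPKM, 100% of them whole within 1e-06.

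Counts were tested with edgeR 4.0.16 (TMM, filterByExpr, quasi-likelihood, Benjamini-Hochberg over all genes) in R 4.3.3, and CPM are TMM-scaled. Alternatives were DESeq2 1.42.0, other scalings and filters, limma 3.58.1 on log2(FPKM + 1) and log2(FPKM + 0.1), a replicate block and left-out libraries. FPKM divides by whole gene models, so long models lower it. Genes named are all mitochondrial and complex II members, the 3 highest levels and the 2 smallest p per direction in each other complex, isoforms, the 2 assembly factors with the smallest p and up to 2 per direction and list. Members and lists were chosen with earlier results of these data known.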

Additional observations from a re-analysis of the deposited data

How the results depend on the processing

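Across all genes, edgeR called 0 and DESeq2 called 39; leaving out 1 library gave 0 to 910 calls, the 910 without cKO 1. Members called were 0 under each of 9 other settings and 0 to 1 with a library left out. Of 63 class medians and differences of medians under settings other than a left-out library, 61 moved by less than the standard deviation between libraries of a group. The exceptions were the complex II median of -0.15, which was -0.11 by limma on log2(FPKM + 1) and -0.11 on log2(FPKM + 0.1); the cause was not tested. With a library left out, the medians ranged from -0.12 to -0.023 (mitochondrially encoded), -0.15 to 0.19 (complex I), -0.23 to -0.12 (complex II), -0.38 to 0.07 (complex III), -0.14 to 0.06 (complex IV) and -0.24 to -0.13 (complex V), and the mitochondrial minus nuclear difference from -0.13 to 0.074. The mitochondrially encoded share of counts was 0.11 percentage points higher in cKO, with -0.02 to 0.24 when a library was left out and 0.243 as a share of summed FPKM. With members sharing under 1% of windows, an alternative added after the data were seen, no median moved by more than that standard deviation. Over genes, the deviations of WT 1 and cKO 1 from their group means had r = -0.02. With 2 libraries per group this cannot decide whether same-numbered libraries were paired. With the replicate block edgeR called 0 genes and 0 members, and the complex V median was -0.17. Precision is limited by 2 libraries per group and, under 10 CPM, by depth.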
